A study of Capra hircus with 72 samples.

Results

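Most of the interferon response genes carry out, sense or relay the innate antiviral response, while 8 entered only by the letters of their names. The set was followed in the blood and muscle of goats held in pens or transported by trailer. Its genes were chosen by gene symbol from the union of 6 deposited tables, each of which compares 1 transport group with its controls. The symbols taken were those of interferon-induced and interferon-stimulated genes, interferon regulatory factors, STAT factors, Toll-like receptors, RNA helicases and antiviral enzymes, with the EIF translation factors left out. This gave 49 genes of the 7558 in the union. Of the 49, 22 were listed in 1 table, 19 in 2 tables, 5 in 3 tables and 3 in 4 tables. The number listed was 2 in blood after 30 min, 8 in blood after 180 min, 30 and 26 in the first muscle set after 30 min and 180 min, and 7 and 14 in the second. A table lists a gene where its unadjusted p in that comparison was under 0.05, so a member has values in the libraries of a table only where it met that limit, and members in the other tables are not analysed here.

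Type I interferons bind a cell surface receptor whose kinases JAK1 and TYK2 phosphorylate STAT factors. With IRF9 these enter the nucleus and switch on interferon-stimulated genes. Interferon itself is made after sensors of foreign nucleic acid signal through IRF3 and IRF7. Those sensors include some Toll-like receptors in membranes and the RIG-I-like helicases in the cytoplasm. Other Toll-like receptors, such as TLR2, TLR4 and TLR5, bind bacterial molecules. Type II interferon acts in part through IRF1, and raises the genes that load peptides onto MHC class I. Many of these genes are expressed at a low tonic level in unstimulated tissue, in leukocytes and in vessel wall cells as well as in muscle fibres.

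RNA-seq was done on 72 libraries from intact male Spanish goats of 8 months, from which feed was withheld overnight. Controls stayed in pens, and the other goats were hauled by trailer, some for 30 min over 50 km and some for 180 min over 200 km. Blood gave 7 control libraries, 4 libraries of 30 min and 7 of 180 min, and each of 2 muscle sets gave 9 libraries for every group. The muscle sets are called 24H and 6D here as in the names of the deposited tables, and the labels do not define those marks. The goat numbers run from 1 to 27 and recur across sets, while the design text counts 54 goats, 18 per treatment, so same-numbered goats of different sets could be different animals. Muscle goat 9 was used as a control by its title and group tag, while its treatment and description fields name 180 min of transport. Library totals ran from 9.45 to 39.5 M counts (M, counts in units of 1000000) with a median of 14.7 M. Markers of skeletal muscle fibres were abundant in the muscle libraries, with a summed level of 29609 to 64774 FPKM over 4 listed markers in the 24H controls. In these bulk samples fewer cells of a type and less RNA per cell cannot be told apart.

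By direction, the members split by tissue. Of the 46 members listed in muscle, 37 were lower in transported goats in each muscle table that lists them and 9 were higher in each. All 33 members that textbooks describe as interferon-induced and that were listed in muscle lay lower: 16 antiviral effectors, 6 genes of the ISG15 and ADP-ribosylation enzymes, 3 of antigen presentation, and the rest among sensors and transcription factors. The 9 higher members were STAT3 and the 8 that entered by the letters of their names, HERC1, HERC2, HERC4, IRF2BP1, IRF2BP2, ISG20L2, ADARB1 and IFITM10. These 8 encode large ubiquitin ligases, corepressors, a ribosomal RNA nuclease, an RNA editing enzyme and a membrane protein, and are not classed with the interferon-induced genes. In blood all 8 listed members were higher, where 59.3% of all genes listed at 180 min and 29.5% of those listed at 30 min were higher. Of the 5 members listed in both tissues (TLR7, IRF3, IRF9, IFIT1 and IFITM10), 4 were higher in blood and lower in muscle, a difference between tissues that was not tested. For IFIT1 in blood the direction is that of the log2 difference, since its median after transport was under the control median. The role groups and the split by interferon induction were drawn up with these values known, and listing required a difference in either direction, so the counts are a description. Among all listed genes the share that lay lower was 51.0%, 51.4%, 51.2% and 54.4% in the 24H 30 min, 24H 180 min, 6D 30 min and 6D 180 min tables, by the authors' fold changes in the authors' deposited table.

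**Figure D1:**
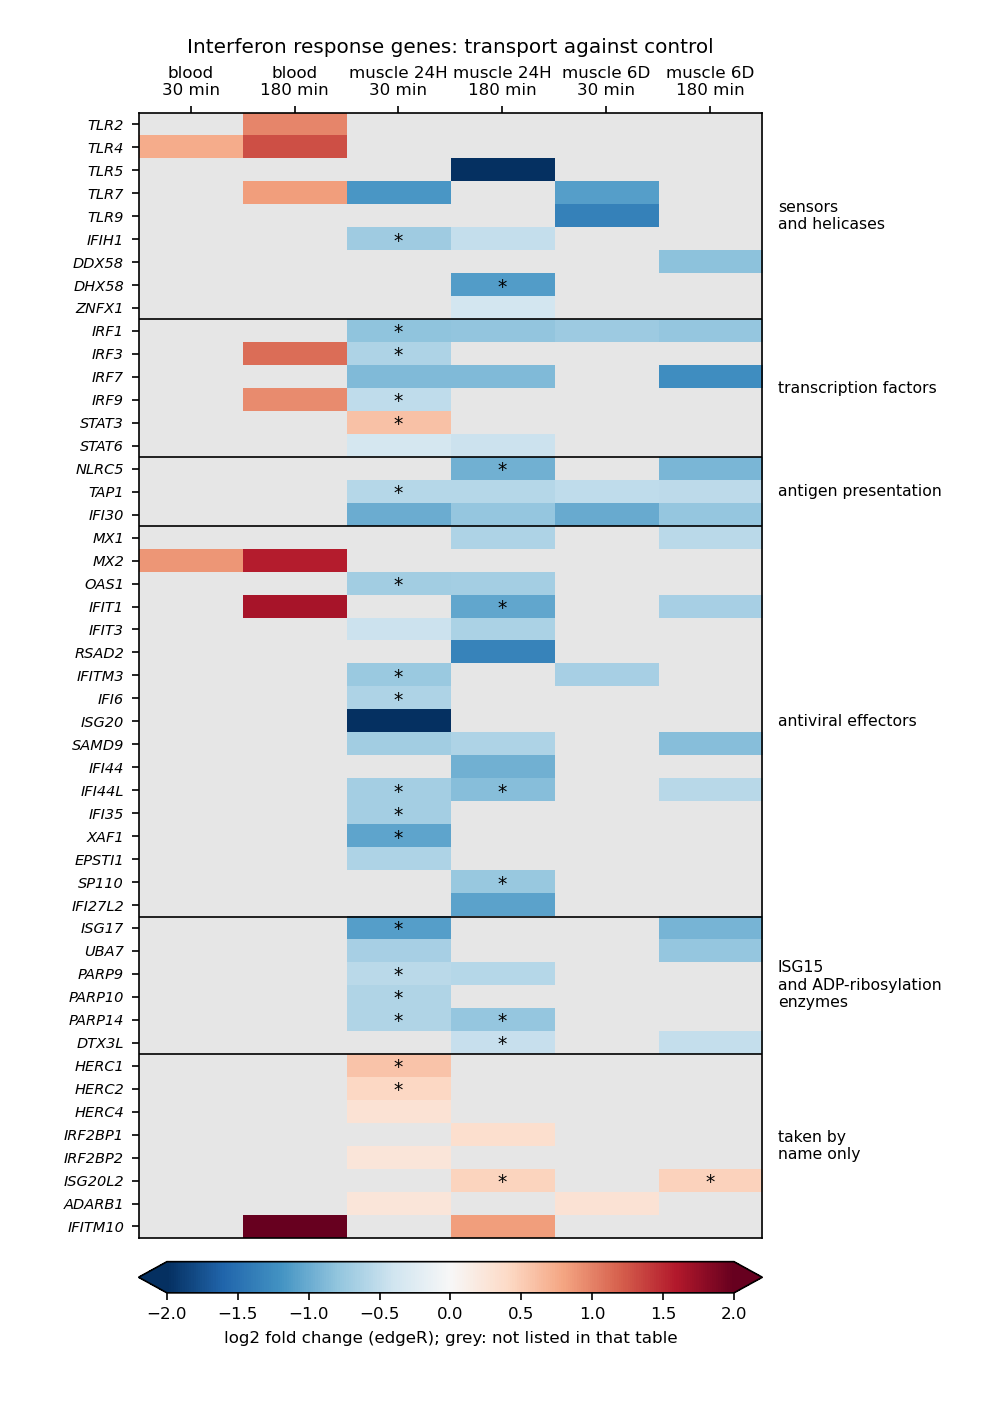
Log2 fold change of the 49 members, transport against control, in each of the 6 comparisons, with genes in rows grouped by role, blue for lower, red for higher and grey where the table does not list the gene. A star marks an adjusted p under 0.05 in the authors' deposited table; the muscle columns are blue for 37 members and red for 9, and the blood columns are red for 8.

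In muscle of the 24H set after 30 min of transport, 24 of the 30 listed members were lower and 6 higher, with a median log2 difference of -0.62 against -0.22 for all 4125 listed genes. Genes were listed on both sides of 0, so a median over all of them depends on how many lay on each side. Here and in the other comparisons the contrast of medians follows direction and is no comparison of size. The lower members included the ubiquitin-like antiviral protein gene ISG17 (the ruminant name of ISG15), the RNA sensor gene IFIH1, the transcription factor genes IRF1, IRF3, IRF7 and IRF9 and the peptide transporter gene TAP1. STAT3, a factor of cytokine signalling through the IL-6 family, was higher. No member passed the edgeR quasi-likelihood test at an adjusted p of 0.05: 0 lower, where 0.0316% of all adjusted genes were called, and 0 higher, where 0.0632% were. The groups overlapped for every member, with 0 set fully lower (0.0485% of listed genes) and 0 fully higher (0.0242%). For 11 of the 30 members, or 36.7%, every transported goat lay under the control median, where this held for 21.4% of the listed genes. The condition favours lower genes. It was met by 11 members, where 24 were lower, and by 882 listed genes, where 2103 were lower. By edgeR 29 of the 30 (96.7%) had an unadjusted p under 0.05, as did 90.4% of all listed genes, which were listed on that limit. The smallest edgeR adjusted p was 0.0589. The authors' deposited table calls 15 members lower (5.91% of all adjusted genes) and 3 higher (6.17%). DESeq2 on the same counts called 14 lower (5.24%) and 3 higher (5.26%), and limma called 0. These percentages count unlisted genes too, while every member here was listed. Of the 4125 listed genes the authors' deposited table calls 747 lower and 781 higher, and DESeq2 called 663 and 665. The edgeR count also rested on single goats, since it was 20 without control goat 8, 18 without 30 min goat 22, 9 without control goat 4 and 7 without 30 min goat 26.

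Among the sensors of this comparison, IFIH1 encodes the cytoplasmic helicase MDA5, which binds long double-stranded RNA. Its normalized counts were 38.3, 71.2 and 118 (lowest, median and highest) in the controls and 32.9, 42.3 and 89.4 after transport. Of the 9 transported goats 8 lay under the control median and 1 above it, with a log2 difference of -0.71 ± 0.22 (SE, edgeR adjusted p = 0.0726). TLR7, the endosomal receptor for single-stranded RNA, had low counts of 2.36, 18.5 and 34.3 in the controls and 1.60, 3.64 and 30.0 after transport. Of the transported goats 8 were under the control median, and the one at 30.0, goat 25, was above it (log2 difference -1.17 ± 0.55, and -1.95 without goat 25).

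Of the 6 transcription factors 5 were lower. IRF3, the factor that responds first to the sensors, had 184, 243 and 392.2 in the controls and 118, 188 and 233 after transport. All 9 transported goats were under the control median and 4 under the lowest control (log2 difference -0.61 ± 0.16, edgeR adjusted p = 0.0642). IRF1, the factor most tied to type II interferon, had 64.5, 110 and 302.5 in the controls and 47.3, 67.6 and 148 after transport. The highest control was goat 5, and goat 22 was the one transported goat above the control median (log2 difference -0.80 ± 0.27). IRF7, which amplifies the type I response, had a log2 difference of -0.88 ± 0.34 at a control median of 20.9 counts. STAT3 went the other way, with 195, 341 and 481 in the controls and 349, 532 and 763 after transport. Its transported goats were all above the control median and 5 of 9 above the highest control (0.59 ± 0.16, edgeR adjusted p = 0.0644).

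Antigen presentation was represented by TAP1, which carries peptides into the endoplasmic reticulum for MHC class I, and by IFI30, a thiol reductase of lysosomes that prepares antigens for MHC class II. TAP1 counts were 208, 309 and 665 in the controls and 161, 254 and 295 after transport, so that all 9 transported goats were under the control median while 2 were under the lowest control (log2 difference -0.57 ± 0.19). IFI30 stood at 4.68, 19.9 and 52.9 in the controls and 4.11, 11.1 and 23.2 after transport, ranges that overlapped widely.

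All 10 antiviral effectors listed here were lower, with a median log2 difference of -0.69. IFI35, a leucine zipper protein of the interferon response, had 78.1, 137 and 162 counts in the controls and 59.2, 77.0 and 103 after transport. All 9 transported goats were under the control median and 5 were under the lowest control (-0.68 ± 0.17, edgeR adjusted p = 0.0636). XAF1, a proapoptotic antagonist of XIAP, had 11.2, 28.4 and 39.0 in the controls and 6.23, 10.9 and 21.5 after transport, a log2 difference of -1.05 ± 0.29. IFITM3, a membrane protein that hinders viral entry, had 83.1, 224 and 294 in the controls and 85.7, 126 and 187 after transport. Here too every transported goat was under the control median, but none was under the lowest control, and control goats 4 and 8 had 83.1 and 120 (-0.74 ± 0.22). IFI44L, a cytoplasmic antiviral protein gene, had a log2 difference of -0.67 ± 0.20, and SAMD9, which restricts poxviruses, one of -0.69 ± 0.30. ISG20, an exonuclease gene, was at the limit of detection. It had 24 reads over the 9 controls and 1 read over the 9 transported libraries, a ratio of 0.0343 whose 95% interval from counting error ran from 0.000834 to 0.21. In 8 of the transported libraries and in 1 control it was at 0, and 9 of the 24 control reads came from a single library.

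Of the ISG15 and ADP-ribosylation enzymes all 5 listed were lower, with a median log2 difference of -0.60. ISG17 lies on chromosome 16, 49959608 to 49963950 (ENSCHIG00000017128; coordinates here and below are those the deposited tables list, and their build is not named). Its normalized counts were 21.5, 40.3 and 75.2 in the controls and 12.7, 18.4 and 33.9 after transport. All 9 transported goats were under the control median and 6 were under the lowest control. The mean went from 44.2 ± 18.3 (SD, n = 9) to 20.5 ± 7.55 (n = 9), a fold of 0.467 and a log2 difference of -1.10 ± 0.27 (edgeR adjusted p = 0.0636). UBA7, the enzyme that activates ISG15 for conjugation, and the ADP-ribosyltransferase genes PARP9, PARP10 and PARP14 made up the rest, with log2 differences from -0.67 to -0.54; PARP9 and PARP10 are named after their values were seen.

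The members taken by name only were higher by small amounts, with log2 differences from 0.23 to 0.57. HERC1, a giant ubiquitin ligase and exchange factor, had 454, 692 and 828.6 counts in the controls and 524, 1023 and 1377 after transport (0.57 ± 0.16, edgeR adjusted p = 0.0644). Its transported goats lay above the highest control in 6 of 9 and under the control median in 1. The name-only members had a median listed length of 6784 bases, against 2279 bases for the interferon-induced members of this comparison and 1897 bases for all listed genes. At 180 min in the same set the name-only members, also all higher, had a median of 1755 bases. There the interferon-induced members had 2169 bases and all listed genes 2262 bases. The part of gene length in the opposite directions was not tested.

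**Figure D2:**
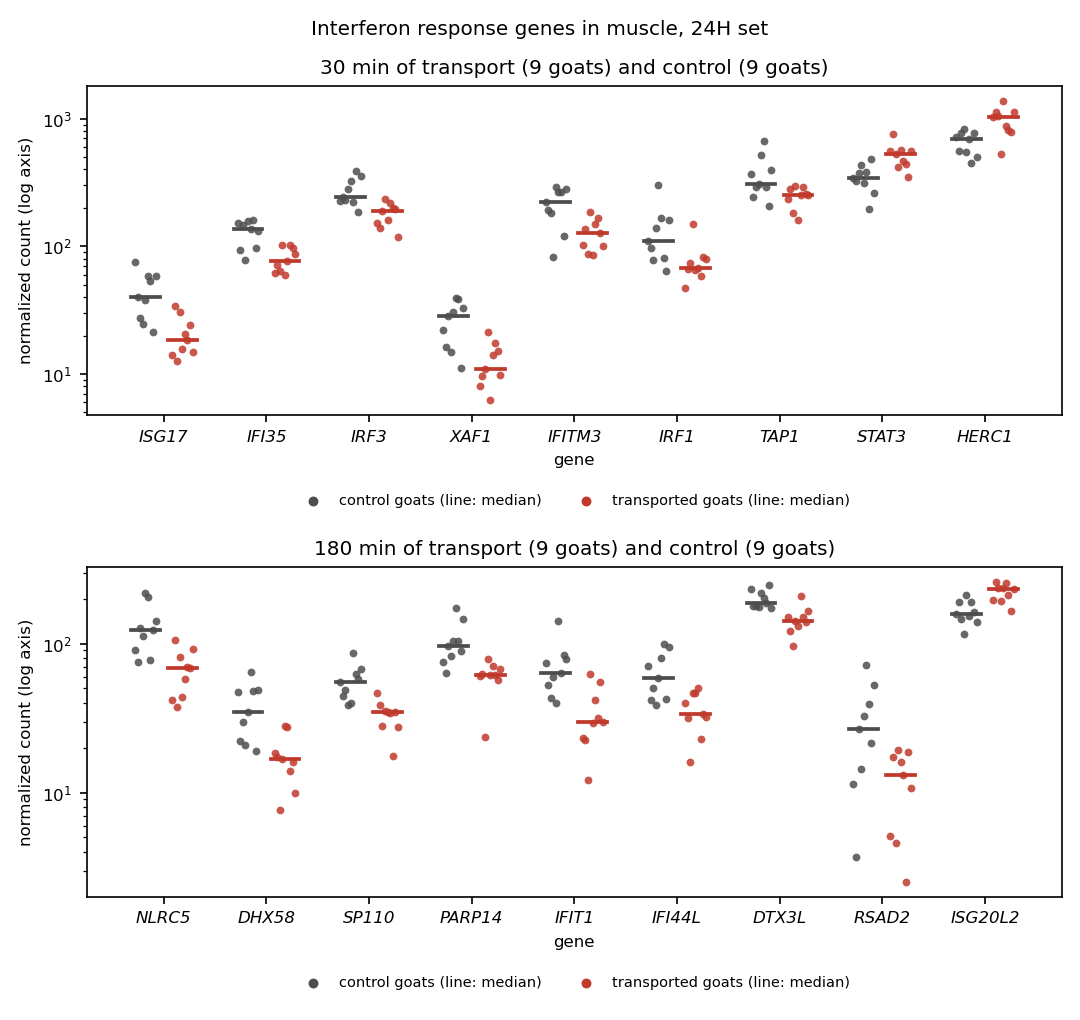
Normalized counts on a log axis in muscle of the 24H set, 1 point per goat, with a line at the median of the 9 goats of each group. In the upper panel the transported goats lie lower for 7 genes and higher for STAT3 and HERC1, and in the lower panel lower for 8 genes and higher for ISG20L2, with overlapping ranges throughout.

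After 180 min of transport, muscle of the 24H set had 23 of 26 listed members lower and 3 higher, with a median log2 difference of -0.72 against -0.30 for all 1961 listed genes. NLRC5, the transactivator of MHC class I genes, DHX58, a regulator of the RNA helicase sensors, the effector genes IFIT1, SP110 and IFI44L and the neighbouring genes PARP14 and DTX3L were lower, and ISG20L2, a nuclease of ribosomal RNA processing, was higher. No member passed edgeR at an adjusted p of 0.05, with 0 lower (0.0498% of all adjusted genes called) and 0 higher (0.121%). No member had groups without overlap, with 0 lower (0.255% of listed genes) and 0 higher (0.153%). For 12 of the 26 members, or 46.2%, every transported goat lay under the control median, where this held for 17.2% of the listed genes. The condition favours lower genes. It was met by 12 members, where 23 were lower, and by 338 listed genes, where 1006 were lower. By edgeR 21 of the 26 (80.8%) had an unadjusted p under 0.05, less than the 91.4% of all listed genes. The smallest edgeR adjusted p was 0.091. The authors' deposited table calls 7 lower (0.946% of all adjusted genes) and 1 higher (1.06%). Of the 1961 listed genes it calls 133 lower and 149 higher, and DESeq2 called 129 and 146. DESeq2 also called 7 lower (0.918%) and 1 higher (1.04%), limma called 0, and edgeR called 0 in each of 18 fits that left out 1 goat.

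NLRC5 (ENSCHIG00000017778, chromosome 18, 26407703 to 26466262) had 75.0, 124 and 217.5 normalized counts in the controls and 37.3, 68.7 and 105 after transport. All 9 transported goats were under the control median and 6 under the lowest control. The mean went from 130 ± 51.3 (SD, n = 9) to 66.4 ± 23.4 (n = 9), a fold of 0.511 and a log2 difference of -0.97 ± 0.24 (edgeR adjusted p = 0.091). The 2 highest controls, goats 5 and 6, held 217.5 and 205.

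DHX58, which encodes the helicase LGP2, had 19.1, 34.6 and 64.3 counts in the controls and 7.61, 16.9 and 28.1 after transport. It lay under the lowest control in 7 of 9 transported goats (-1.12 ± 0.29, edgeR adjusted p = 0.101). IFIH1 was listed again with a smaller log2 difference of -0.47 ± 0.23, and ZNFX1, a helicase that binds viral RNA, had -0.37 ± 0.17; both are named after their values were seen. TLR5, the flagellin receptor, had 22 reads over the 9 controls and 4 over the transported libraries, a ratio of 0.176 with a 95% counting interval from 0.0441 to 0.518. A single control library held 11 of the 22 reads.

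The 10 antiviral effectors listed at 180 min were all lower, with log2 differences from -1.34 to -0.61. IFIT1, which binds foreign RNA caps, had 40.03, 63.3 and 142 counts in the controls and 12.2, 29.8 and 62.6 after transport, with all 9 transported goats under the control median (-1.04 ± 0.29, edgeR adjusted p = 0.124). SP110, a nuclear body protein, had 38.8, 55.7 and 87.0 in the controls and 17.7, 34.8 and 46.8 after transport, and 7 of 9 transported goats were under the lowest control (-0.75 ± 0.20). IFI44L had 38.8, 58.4 and 99.25 in the controls and 15.99, 33.9 and 50.5 after transport (-0.85 ± 0.24). RSAD2, which encodes the antiviral enzyme viperin and is named after its values were seen, had the most negative log2 difference of the group at -1.34 ± 0.45. Its controls were the more scattered, at 3.69, 26.6 and 71.6 against 2.53, 13.2 and 19.45 after transport.

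PARP9, DTX3L and PARP14 lie side by side on chromosome 1, with 5.245 kb and 14.268 kb between them, and DTX3L and PARP9 form a ubiquitin ligase complex. All of them were lower at 180 min. DTX3L had 173, 188 and 249 counts in the controls and 96.7, 143 and 208 after transport, with 8 of 9 transported goats under the lowest control and 1 above the control median (-0.46 ± 0.13, edgeR adjusted p = 0.136). PARP14 had 63.9, 96.0 and 175 in the controls and 23.6, 61.9 and 79.5 after transport (-0.78 ± 0.21). Among the transcription factors IRF1 (-0.79 ± 0.28) and IRF7 (-0.89 ± 0.42) had nearly the log2 differences seen at 30 min, from the same controls. ISG20L2 was the one member of the name-only group called by the authors' deposited table here, with 116, 157 and 212 counts in the controls and 167, 231 and 257 after transport. All 9 transported goats exceeded the control median and 5 exceeded the highest control (0.44 ± 0.12, edgeR adjusted p = 0.133).

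The 2 transport times share their controls, so they were set against each other directly for the members listed at both times. In muscle of the 24H set 12 members could be compared. Their differences, 180 min minus 30 min, ran from -0.20 for IFIT3 to 0.24 for IFIH1 on the log2 scale, with a median of -0.0017 and 95% interval bounds from -0.76 to 1.02. None of the 12 was called by edgeR, where 5.35% of the 636 genes compared were, and 0 of the 12 had an unadjusted p under 0.05. In the 6D set the 3 members compared, IFI30, IRF1 and TAP1, differed by -0.04 to 0.23 with bounds from -0.64 to 0.91, and 0 were called (1.7% of 352 genes). In blood TLR4 and MX2 differed by 0.55 ± 0.40 and 0.68 ± 0.69, and 0 were called (0.0% of 120 genes).

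In muscle of the 6D set after 30 min, 6 of 7 listed members were lower and 1, ADARB1, higher. The median log2 difference was -0.73 against -0.28 for all 1252 listed genes. No member was called by edgeR (0.0% of all adjusted genes in either direction) or by the authors' deposited table (0.0059% lower, 0.0118% higher), DESeq2 and limma called 0, the groups of 0 members were without overlap (0.0% of listed genes in either direction), and 4 of the 7 (57.1%) had an unadjusted edgeR p under 0.05, against 75.8% of all listed genes. Every transported goat was under the control median for 1 of the 7 members (14.3%), close to the 12.7% of all listed genes. That was 1 member, where 6 were lower, and 159 listed genes, where 641 were lower. TLR9, the receptor for unmethylated CpG DNA, had 3.78, 19.3 and 52.7 counts in the controls and 0.764, 8.15 and 23.01 after transport (-1.36 ± 0.46, edgeR adjusted p = 0.797). TLR7 had a log2 difference of -1.10 ± 0.50 at a control median of 10.1 counts. IFI30 had 12.5, 42.1 and 66.95 in the controls and 5.54, 19.9 and 37.7 after transport, with all 9 transported goats under the control median (-1.003 ± 0.35). IRF1 had 156, 201 and 730 in the controls and 84.6, 143 and 296 after transport, and 7 of 9 transported goats were under the lowest control while 2 were above the median control (-0.73 ± 0.30). Both TAP1 and IFITM3 were lower with wide overlap (-0.51 ± 0.26 and -0.66 ± 0.32). Without control goat 5 the log2 difference was -0.35 for IRF1, -0.31 for TAP1 and -0.40 for IFITM3. For TLR9, IFI30 and TLR7 the farthest move was away from 0, to -1.67, -1.17 and -1.30, each without 1 transported goat.

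After 180 min, muscle of the 6D set had 13 of 14 listed members lower and 1, ISG20L2, higher, and the median log2 difference was -0.77 against -0.39 for all 1618 listed genes. By edgeR 0 members were called lower (0.0139% of all adjusted genes) and 0 higher (0.0695%), and 14 of 14 had an unadjusted p under 0.05, as did 86.7% of all listed genes. Every transported goat was under the control median for 2 of the 14 members (14.3%), no larger a share than the 16.2% of all listed genes. That was 2 members, where 13 were lower, and 262 listed genes, where 879 were lower. The groups were without overlap for 0 members, lower (0.0% of listed genes) or higher (0.309%). The authors' deposited table calls 0 lower (0.396% of all adjusted genes) and 1 higher (0.431%), which is ISG20L2. DESeq2 also called 1 higher (0.466%), and limma called 0. Of the 1618 listed genes the authors' deposited table calls 62 higher, and DESeq2 called 67. ISG20L2 had 112, 148 and 183 counts in the controls and 161, 188 and 260 after transport, above the control median in all 9 (0.46 ± 0.13, edgeR adjusted p = 0.188). NLRC5 had 102, 186 and 367 in the controls and 55.1, 94.7 and 182 after transport. It was 1 of those 2 members, IFI30 being the other, and 6 transported goats were under the lowest control (-0.91 ± 0.27, edgeR adjusted p = 0.228).

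ISG17 in this comparison had 19.8, 66.7 and 147 counts in the controls and 14.6, 34.8 and 101 after transport (-0.93 ± 0.36). The highest transported value, 101 in goat 15, was above 7 of the 9 controls. SAMD9 had 18.0, 88.1 and 194 in the controls and 26.98, 55.3 and 90.7 after transport (-0.85 ± 0.33). UBA7 had 91.7, 144 and 534.5 in the controls and 56.6, 127 and 205 after transport, a log2 difference of -0.77 ± 0.32. For IRF7 the difference of -1.24 ± 0.53 went with a single control, goat 5, at 198 counts, where the control median was 20.3 and the transported goats had 5.66, 13.2 and 47.6. The remaining lower members, DTX3L, IRF1, IFI30, IFIT1, IFI44L, MX1, DDX58 and TAP1, had log2 differences from -0.82 to -0.47. The -0.82 is that of DDX58, the RNA sensor RIG-I, for which control goat 9 had 111 counts and the other controls 9.25 to 35.0, and it was -0.35 without that goat, whose labels conflict. Without control goat 5 the difference was -0.34 for IRF7, -0.39 for IRF1, -0.46 for UBA7, -0.65 for IFI30 and -0.73 for NLRC5. That of SAMD9 was -0.67 without control goat 9. Leaving out transported goat 15 moved other members farther from 0. They were ISG17 (-1.25), IFIT1 (-0.89), IFI44L (-0.76), TAP1 (-0.73), MX1 (-0.67) and DTX3L (-0.60).

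**Figure D3:**
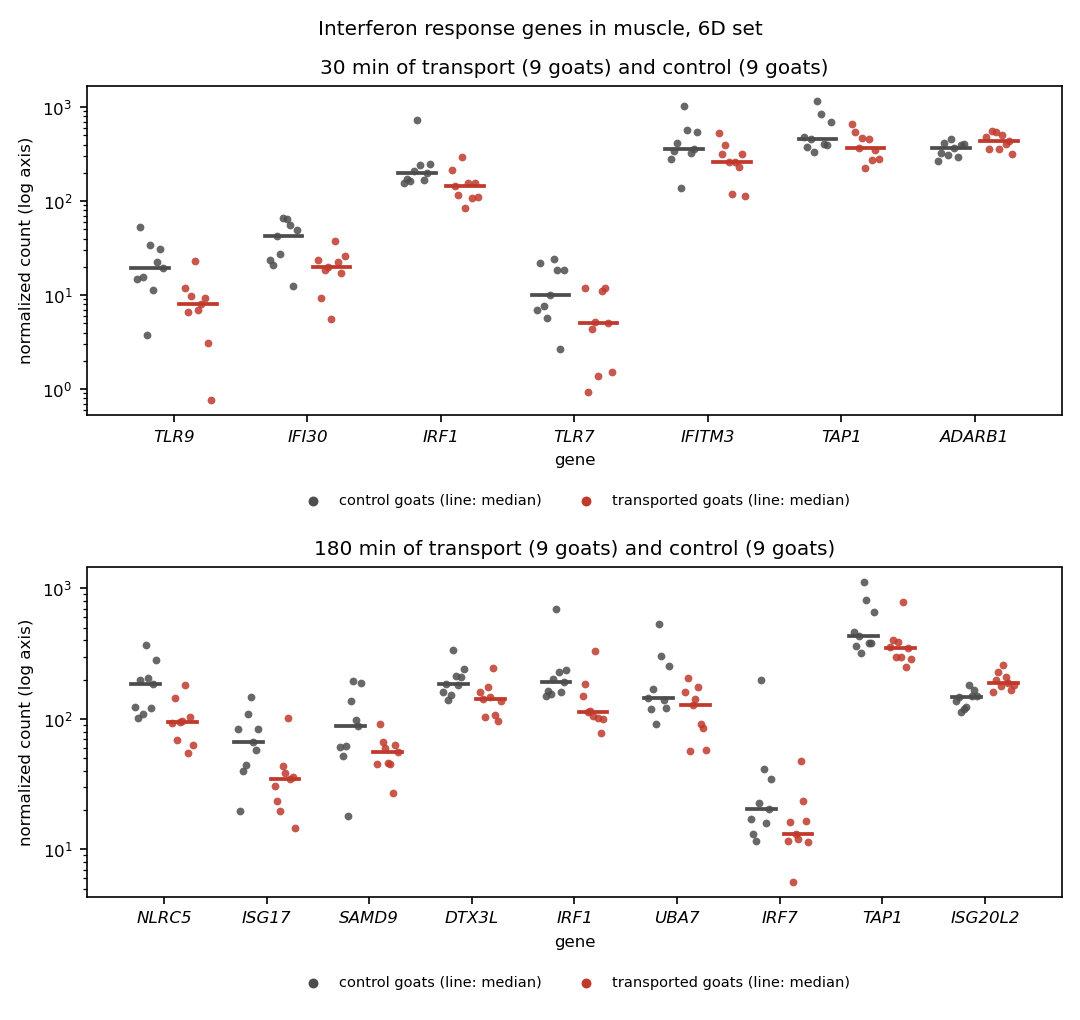
Normalized counts on a log axis in muscle of the 6D set, 1 point per goat, with a line at the median of the 9 goats of each group. All genes shown but ADARB1 and ISG20L2 have the lower median after transport, and a single control, goat 5, stands highest for IRF1 and IRF7.

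Some goats were high or low for many of the interferon-induced members together. The same counts were not made over all listed genes, so this may not be particular to the members. In the 24H controls goat 6 was above the control median for 21 of the 22 members listed at 30 min and goat 9, the goat with conflicting labels, for 18, while goat 8 was lowest for 10. In the transported goats of that comparison goat 22 was highest for 14 of 22, and after 180 min goat 12 was lowest for 17 of 21. In the 6D set after 180 min goat 15 was highest for 9 of 13, and control goats 5 and 9 were above the control median for 13 of 13. Endothelial marker sums are given here for some goats, not for control goats 6 and 8 or the 6D controls. In 30 min goat 22 the sum over 8 markers was 232 FPKM, the highest of its group. In 180 min goat 12 of the 24H set it was 20.8 FPKM over 6 markers, the lowest of its group. In 180 min goat 15 of the 6D set it was 244 FPKM over 2 markers, the highest of its group. Control goats 9 and 7 had the highest sums of the 24H controls, 290 and 335 FPKM over 8 markers, but goat 5 had 162 FPKM, under the control median of 196.

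The control libraries of the muscle sets were compared by goat number, although it is not given whether a number marks 1 animal in both. For 16 members listed in both sets the log2 counts of the 9 same-numbered control goats had a median Pearson correlation of 0.77, from 0.15 for ISG20L2 to 0.96 for SAMD9, where the 1407 genes listed in both sets had a median of 0.39. By an exact two-sided permutation test 11 of the 16 members (68.8%) had an unadjusted p under 0.05 for Pearson's r, against 310 of the 1407 genes (22%), and 6 (37.5%) for Spearman's rho, against 17.3%. The 16 members were measured in the same 9 goats, some of which were high for many members together. They are therefore not separate results, and 1 pattern shared by goats could be counted many times. After adjustment over the 1407 genes 1 member, SAMD9, was under 0.05 for Pearson's r (2.2% of all genes) and 0 for Spearman's rho (0.0%). Without the 2 goats farthest from the median of the 24H set all 16 coefficients stayed positive, their median was 0.67 and 5 had an unadjusted p under 0.05. That was not repeated over the 1407 genes, so it may not be particular to the members. SAMD9 gave r = 0.96 (exact permutation p = 0.0003, adjusted p = 0.028) and rho = 0.87 (p = 0.0045, adjusted p = 0.11), and r = 0.96 without goats 4 and 5. NLRC5 gave r = 0.85 (exact permutation p = 0.0037, adjusted p = 0.075) and rho = 0.93 (p = 0.00075, adjusted p = 0.070), and r = 0.84 without goats 5 and 6. IFIT1 gave r = 0.17 (exact permutation p = 0.66, adjusted p = 0.84) and rho = 0.28 (p = 0.46, adjusted p = 0.70).

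**Figure D4:**
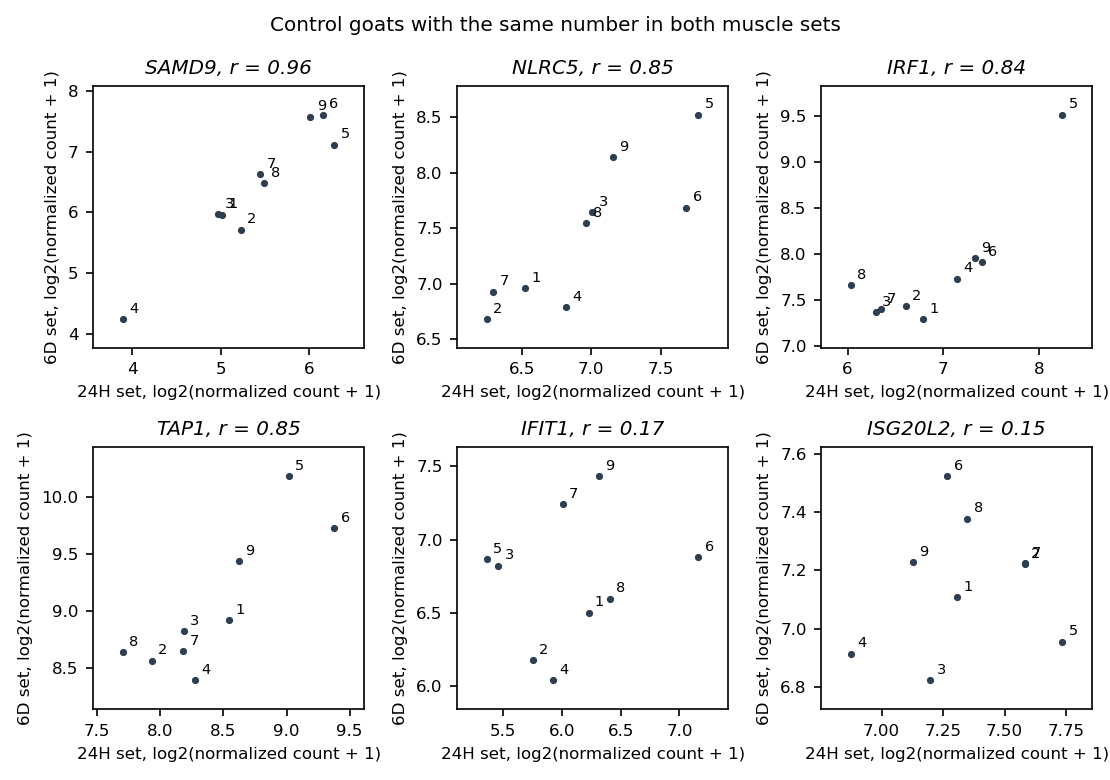
Log2 of the normalized count plus 1 of 6 members in the 9 control goats, with the 24H set on the horizontal axis and the 6D set on the vertical axis, each point marked with its goat number. SAMD9, NLRC5, IRF1 and TAP1 have Pearson correlations of 0.96, 0.85, 0.84 and 0.85, and IFIT1 and ISG20L2 have 0.17 and 0.15.

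In blood after 30 min the listed members were TLR4, the receptor for bacterial lipopolysaccharide, and MX2, a dynamin-like antiviral GTPase, and both were higher. TLR4 had 951, 1155, 1246 and 1386 normalized counts in the 4 transported goats and 554, 611 and 1043 in the controls (lowest, median and highest). Of the 4 transported goats 3 were above the highest control, and the log2 difference was 0.74 ± 0.22 (edgeR adjusted p = 1). MX2 had 3073 in goat 21 and 594, 827 and 1181 in the other 3, against 516, 806 and 920 in the controls, so that 2 of 4 goats were above the highest control, goat 21 farthest (0.89 ± 0.35, and 0.18 without goat 21). By edgeR 0 members were called lower and 0 higher (0.0% of all adjusted genes in both directions), the authors' deposited table also calls 0 (0.0% lower, 0.0241% higher), DESeq2 and limma called 0, and both members had an unadjusted edgeR p under 0.05, as did 70.7% of all listed genes. The groups were without overlap for 0 members, lower (1.63% of listed genes) or higher (6.51%). Beside them 4 of 7 B cell markers were listed, all lower, with sums of 453 to 1710 FPKM in the controls and 452 to 695 FPKM after transport, and their part was not tested.

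After 180 min all 8 members listed in blood were higher, with a median log2 difference of 1.20 against 0.77 for all 1247 listed genes. They were the receptor genes TLR2, TLR4 and TLR7, the factor genes IRF3 and IRF9, the effector genes MX2 and IFIT1, and IFITM10. None was called higher by edgeR (0.0805% of all adjusted genes) or lower (0.0%), and the authors' deposited table calls 0 (0.634% higher, 0.0704% lower). DESeq2 called 1 higher (1.06% of all adjusted genes, and 105 of the 1247 listed), and limma called 0. By edgeR 7 of the 8 (87.5%) had an unadjusted p under 0.05, against 81.6% of all listed genes. The groups were without overlap for 0 members, lower (1.2% of listed genes) or higher (1.84%). Scaling by TMM over the listed genes moved the median of all listed genes by -0.50. The member median went from 1.20 to 0.72, and all 8 members stayed higher.

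TLR4 had 581, 732 and 1094 counts in the controls and 669, 1470 and 3952 in the transported goats, 6 of 7 of which were above the highest control (1.29 ± 0.35, edgeR adjusted p = 0.245). TLR7 had 585, 1035 and 1530 in the controls and 1076, 1774 and 2983 after transport, above the control median in 7 of 7 (0.84 ± 0.29). TLR2, which binds bacterial lipopeptides, had 615, 1620 and 2170 in the controls and 523, 2136 and 4889 after transport (0.97 ± 0.44). Its transported values split into goats 14, 15 and 16 at 4679 to 4889 and the other 4 at 523 to 2136.

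IRF3 had 1337, 2220 and 6199 counts in the controls and 3017, 4191 and 14495 after transport, above the control median in 7 of 7 goats and above the highest control in 2 (1.12 ± 0.42, edgeR adjusted p = 0.354). IRF9 ran with it, at 2721, 5253 and 10819 in the controls and 5636, 9136 and 30135 after transport (0.94 ± 0.43). Goats 10 and 11 were the highest for both factors. The interferon-induced effectors were highest in other goats. IFIT1 had 14266, 25525 and 8369 counts in goats 14, 15 and 16 and 206 to 1307 in the other 4 transported goats, against 606, 1811 and 5132 in the controls. Its transported median of 1307 was under the control median although its mean was higher (1.65 ± 0.87, edgeR adjusted p = 0.638, and 0.88 without goat 15). MX2 had 5644, 7813 and 1608 in goats 14, 15 and 16 and 382 to 899 in the other 4, against 556, 873 and 970 in the controls (1.57 ± 0.58, and 0.96 without goat 15). For both effectors, 3 transported goats were above all controls and the others were within or under the control range. IFITM10 was at 0 in 4 of 7 controls, with at most 3.96 counts, and at 56.9 in transported goat 10.

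**Figure D5:**
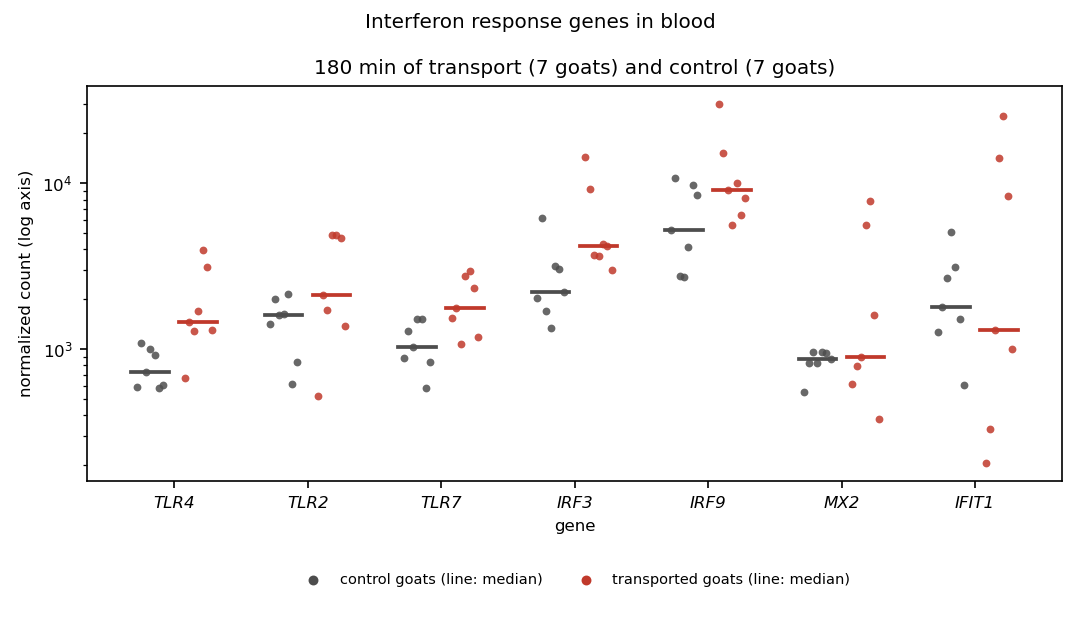
Normalized counts on a log axis in blood, 1 point per goat, for 7 control goats and 7 goats transported for 180 min, with a line at the median of each group. For MX2 and IFIT1, 3 transported goats are above all controls and the rest are not, while for IRF3 and IRF9 another 2 goats are highest.

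Leukocyte markers moved in the same blood libraries. Of 10 neutrophil markers 6 were listed and all 6 were higher, with a summed level of 668 to 5888 FPKM in the controls and 3385 to 18095 FPKM after 180 min. The highest sums, 18095 and 12814 FPKM, were in goats 10 and 11, and goats 14, 15 and 16 had 3385, 6611 and 6973 FPKM. Of 10 monocyte and macrophage markers 5 were listed, all higher, with sums of 76.9 to 250 FPKM in the controls and 238 to 659 FPKM after transport. Of 10 T and NK cell markers 5 were lower and 1 higher. No plasmacytoid dendritic cell marker was listed. The part of these cell types in the blood values was not tested. In the library of goat 10 the listed genes took 26.2% of all counts, where the controls had 4.22 to 9.25%.

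In muscle several marker lists moved beside the members. Of the endothelial markers in the 24H set after 30 min, 8 of 10 were listed and all 8 were lower. The authors' deposited table calls 6 of them, where it calls 5.91% of all adjusted genes lower, and 747 of the 4125 listed genes. Their summed level was 148 to 335 FPKM in the controls and 76.0 to 232 FPKM after transport. After 180 min 6 endothelial markers were listed, all lower, at 36.6 to 81.5 FPKM and 20.8 to 48.9 FPKM. In the 6D set 2 were listed at each time, all lower, at 103 to 283 FPKM and 84.2 to 216 FPKM after 30 min and at 102 to 291 FPKM and 55.0 to 244 FPKM after 180 min. After 30 min in that set 4 monocyte and macrophage markers (6.54 to 26.7 FPKM in the controls, 2.70 to 16.2 FPKM after transport) and 3 T and NK cell markers (1.01 to 6.50 FPKM and 0.528 to 2.73 FPKM) were lower too. Of 10 muscle fibre markers 4 were listed in 24H muscle at 30 min, with the slow-fibre gene TNNT1 (-0.86 ± 0.31), MB (-0.53 ± 0.18) and CKM (-0.35 ± 0.20) lower and the fast-fibre gene MYH2 higher (0.44 ± 0.23), at sums of 29609 to 64774 FPKM in the controls and 20706 to 46059 FPKM after transport. At 180 min TNNT1 (-0.77 ± 0.25) and the slow myosin gene MYH7 (-0.64 ± 0.20) were lower and MYH2 higher (0.42 ± 0.22), at 11379 to 25812 FPKM and 7713 to 17464 FPKM. Macrophage markers of 24H muscle at 30 min went both ways, with CD68 lower (-0.87 ± 0.30) and the scavenger receptor CD163 (0.76 ± 0.34) and MRC1 (0.59 ± 0.27) higher. CD163 was also higher at 180 min in the 24H set (1.53 ± 0.38) and the 6D set (0.94 ± 0.34). The part of these cell types in the muscle values was not tested.

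Genes of the pathway that are no members were followed from lists drawn up with earlier results known. Of 43 further interferon-stimulated genes, 7 were lower and 1 higher in 24H muscle at 30 min, and 8 lower and 0 higher at 180 min. In 6D muscle 3 were lower and 1 higher at 30 min, and 6 lower and 1 higher at 180 min. Most of the 43 were not listed. In 24H muscle 8 were listed at 30 min (4125 genes listed, 12649 adjusted) and 8 at 180 min (1961 and 14056). In 6D muscle 4 were listed at 30 min (1252 and 16947) and 7 at 180 min (1618 and 14384). IDO1, a tryptophan-degrading enzyme induced by type II interferon, had a log2 difference of -1.98 ± 0.68 in 24H muscle at 30 min, and IL15, a cytokine of lymphocytes and muscle, -0.72 ± 0.19 in 24H muscle and -0.80 ± 0.22 in 6D muscle at 180 min. Of 18 further antigen processing genes 6 were lower and 1 higher in 24H muscle at 30 min. The authors' deposited table calls 5 of the lower ones, where it calls 5.91% of all adjusted genes lower, and 747 of the 4125 listed genes. The immunoproteasome subunit genes PSMB9 (-1.16 ± 0.25, edgeR adjusted p = 0.06) and PSMB8 (-0.90 ± 0.21) led the lower ones. Of 11 genes of the receptor and kinase relay 4 were listed there, all higher, among them JAK1 (0.68 ± 0.21) and the phosphatase gene PTPN11 (0.74 ± 0.24). In the other muscle tables the relay was mixed, with 2 higher and 1 lower in the 24H set at 180 min, 3 higher and 1 lower in the 6D set at 30 min, and 1 higher and 1 lower at 180 min. In blood after 30 min SOCS1, the feedback inhibitor of JAK kinases, was higher by 2.51 ± 0.37 (edgeR adjusted p = 0.0686), and the authors' deposited table calls it.

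Per gene length, IRF3, IRF9, IFIT1 and TLR7 stood higher in control blood than in 24H control muscle, and IFITM10 stood lower. Only these 5 members were listed in both tissues, so the others cannot be compared. In the 24H controls the median FPKM was 33.1 for IFITM3, 12.03 for IRF3, 11.96 for IRF9, 9.16 for TAP1, 3.02 for IFIT1, 0.647 for ISG17 and 0.206 for TLR7. The name-only members IRF2BP2 and IRF2BP1 were at 46.9 and 18.6. In control blood the medians were 185 for IRF9, 91.5 for IRF3, 62.4 for IFIT1, 21.6 for TLR2, 19.8 for MX2, 10.7 for TLR4 and 7.86 for TLR7. IFITM10 was at 10.9 in 24H control muscle and 0 in control blood. Neighbouring copies limit some of these values. MX2 and MX1 lie 19.75 kb apart on chromosome 1, IFIT1 and IFIT3 23.817 kb apart on chromosome 26, and IFI44L and IFI44 17.084 kb apart on chromosome 3. The sources used here do not give how reads shared by such copies were counted, and the values of these genes, and of OAS1 and the IFITM genes, are uncertain.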

How the data were processed

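Raw counts per gene are deposited as whole numbers beside the signal called normalized counts, which the authors made by dividing each library by 1 size factor, separately for each of 6 tables; this was checked on the values. The authors also deposited FPKM values, and their own log2 fold changes, p-values and adjusted p-values, per the file headers. For the aligner, counter, build and strand setting, nothing was given in the sources used here. Library totals were those implied by the FPKM columns. Each table was fitted on its own with the edgeR quasi-likelihood test (version 4.0.16), 2-sided, on all listed genes, with library sizes from the deposited size factors. Adjustment was Benjamini-Hochberg at 0.05 over the number of genes the authors adjusted, recovered from their p-values, with unlisted genes at a p of 1. That number was 20719 and 9944 in blood (30 min and 180 min), 12649 and 14056 in the 24H set, and 16947 and 14384 in the 6D set. The dispersions come from genes listed for their difference. The test was also run on simulated counts with a fixed dispersion and no selection of genes by p. The genes here were selected by p, so that run does not show how the test performs on them. The labels do not say whether libraries come from separate animals beyond their goat numbers, so p-values measure the spread between these samples. DESeq2 (version 1.42.0) and limma (version 3.58.1, on log2 of the normalized count plus 1 or plus 0.5) were alternatives, with library totals or TMM as scaling, a minimum mean of 10 counts, adjustment within the listed genes, and each library left out.

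The direct comparison of the transport times used the genes listed in both tables. The members and lists were chosen with earlier results of these data known. Named are, in each table, the 8 members with the smallest edgeR p and those with the most extreme log2 differences, members in 3 or more tables, and members called in 2 or more tables of the authors; the rest were named after their values were seen. Correlations of control goats were adjusted over the 1407 genes listed in both muscle sets. Intervals on read ratios cover counting error only. Sequences were not used here. The fits ran in R 4.3.3; the summaries and figures used scipy 1.17.1, numpy 2.4.6, matplotlib 3.10.9 and pandas 2.3.3 under Python 3.11.15.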

Additional observations from a re-analysis of the deposited data

Results flagged for a closer look

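Within groups of 7 or 9 goats, 108 sets of log2 values of a member were searched for a goat set apart from the rest by its share of the whole range, and 9 were found, where chance gives about 1 in 20. In 24H muscle after 30 min, goat 22 was high for IRF1 (148 counts against a group median of 67.6, gap 0.516 of the range), goat 25 was high for TLR7 (30.0 against 3.64, gap 0.502) and goat 27 held the single ISG20 read of the group (gap 1). In 24H muscle after 180 min, goat 12 was low for IRF7 (0.761 counts against 10.2, gap 0.588), PARP14 (23.6 against 61.9, gap 0.725) and TAP1 (119 against 218, gap 0.579). In 6D muscle control goat 5 was high for IRF1 (730 against 201, gap 0.701) and IRF7 (198 against 20.3, gap 0.560), and 180 min goat 15 was high for TAP1 (780 against 348, gap 0.583).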

How the results depend on the processing

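No direction of a member turned under any alternative. Members past the threshold numbered 0 in all 6 comparisons by edgeR, by limma with either pseudocount, with library totals or TMM, and with at least 10 counts. Adjusted within the listed genes they numbered 28 and 17 in 24H muscle (30 min and 180 min), 7 in 6D muscle at 180 min and 4 in blood at 180 min. Those are 93.3%, 65.4%, 50.0% and 50.0% of the members listed, where 82.4%, 77.9%, 57.0% and 53.5% of all listed genes passed. By DESeq2 they numbered 17, 8, 1 and 1 in the same comparisons, and the authors' deposited table calls 18, 8, 1 and 0 of them. With 1 library left out the count ranged from 0 to 20 in 24H muscle at 30 min and from 0 to 0 in the other comparisons and in the direct comparisons of transport times. Without both control goats 7 and 9, an alternative chosen after seeing the data, 0 members passed at either time in the 24H set. The cause of these differences was not tested, other than that adjustment within the listed genes divides by fewer genes. For the genes named by table, 119 alternative fits crossed the threshold and 1422 did not. TMM over the listed genes shifted the median of all genes by 0.22 in blood at 30 min and by -0.50 at 180 min. No paired analysis was possible because the groups compared hold different goats and share no replicate numbers. Low depth limits ISG20, TLR5 and IFITM10, and blood at 30 min has 4 transported goats.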
